A study of Mus musculus with 16 samples.

Results

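Interferon-stimulated genes are the genes that cells switch on when an interferon binds its receptor. A list of 43 of them, chosen by name, was followed by RNA-Seq in memory CD4+ T cells of the spleen, and all 43 were found among the 56748 genes of the count and TPM tables. Memory cells had been sorted as CD4+, CD25 low or negative, CD62L- and CD44 high from 16 samples, 4 in each of 4 groups. HP1α KO samples came from mice homozygous for an Hp1a allele that CMV-cre had excised in the whole animal, and HP1α WT samples from their Hp1a +/+ littermates. HP1γ KO samples came from mice homozygous for a floxed Hp1g allele that also carried the Cd4-cre transgene, which deletes in T cells, and HP1γ WT samples from littermates with the same floxed allele and no Cre, so that the effect of the transgene cannot be told apart from that of the deletion. The study's methods describe young adult littermates of the same sex, with a background mixed from 129/Sv and C57BL/6. No label says that replicates were separate animals, and p-values therefore measure the spread between these samples, which may be technical.

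Type I interferons signal through IFNAR1 and IFNAR2 to the kinases JAK1 and TYK2, which phosphorylate STAT2. With IRF9 it forms part of the complex ISGF3, which binds the interferon-stimulated response element (ISRE), whereas interferon-γ acts mainly at the gamma-activated site (GAS). HP1 proteins bind methylated histone H3 in heterochromatin, and the question put to these genes was whether loss of either isoform moved them in memory cells.

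The promoters show what the genes share in sequence, which their choice by name did not use. In the 250 bases upstream of each start (GRCm39, canonical transcript of the GENCODE annotation), the ISRE core GAAANNGAAA or its reverse complement TTTCNNTTTC stood in 18 of 43 genes (41.9%) and in 723 of 21757 protein-coding promoters (3.32%). The GAS letters TTCNNNGAA, which read the same on either strand, stood in 8 of the 43 (18.6%) and in 1675 of all promoters (7.7%). Matches were counted wherever they began, so that neighbouring matches may overlap each other. A match is a stretch of letters and not a measured binding site, and a promoter with no match lacks only these letters in this window. The stretches around the matches nearest the start are given for 9 genes described below, because these are the genes the results turn on or the ones that show the shared element most clearly. They are written 5′ to 3′ on the strand of the gene, with the core matches in capitals.
Ifit1, chr19:34618170-34618238, plus strand: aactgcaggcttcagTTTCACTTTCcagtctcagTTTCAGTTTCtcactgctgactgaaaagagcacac
Ifit3, chr19:34560758-34560841, plus strand: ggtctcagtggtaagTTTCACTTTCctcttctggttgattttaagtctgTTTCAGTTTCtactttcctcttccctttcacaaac
Ifit3b, chr19:34585154-34585237, plus strand: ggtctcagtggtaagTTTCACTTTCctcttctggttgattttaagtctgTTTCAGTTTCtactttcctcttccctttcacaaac
Isg15, chr4:156285307-156285368, minus strand: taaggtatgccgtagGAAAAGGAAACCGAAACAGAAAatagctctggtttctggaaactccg
Stat2, chr10:128106130-128106179, plus strand: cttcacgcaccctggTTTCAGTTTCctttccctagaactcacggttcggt
Usp18, chr6:121222767-121222840, plus strand: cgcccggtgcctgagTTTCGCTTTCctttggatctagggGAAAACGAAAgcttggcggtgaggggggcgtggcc
Bst2, chr8:71990206-71990261, minus strand: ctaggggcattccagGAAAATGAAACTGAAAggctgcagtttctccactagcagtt
Ifi203, chr1:173770059-173770108, minus strand: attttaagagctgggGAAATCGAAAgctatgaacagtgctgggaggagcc
Ifi213, chr1:173426882-173426926, minus strand: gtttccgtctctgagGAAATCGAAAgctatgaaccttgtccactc

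The 84-base stretches of Ifit3 and its neighbour Ifit3b were identical, and the last core base lay 83 bases upstream of the start of Ifit3 and 116 bases upstream of that of Ifit3b. In Isg15, 3 matches overlapped in 1 run that ended 29 bases upstream of the start. Ifi203 and Ifi213, members of the same family of DNA-binding proteins on chromosome 1, shared a run of 20 bases around their single match. By role, the core stood in 4 of 6 genes of the IFIT and ISG group (Ifit1, Ifit3, Ifit3b, Isg15, Isg20 and the ISG15 ligase gene Herc6), 2 of 5 OAS genes, 3 of 7 IRG and GBP GTPases and none of Parp9, Parp14 and Dtx3l. Gbp2, Gbp3 and Mx1, described below, held no match to either motif in this window.

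The libraries held 26694045 to 40199637 estimated counts. Cbx3, which encodes HP1γ, was at 45.4 to 49.3 CPM (counts scaled to the size of the library) in HP1γ KO and at 73.4 to 91.9 in their WT littermates, and Cbx5, which encodes HP1α, was at 23.0 to 29.2 CPM in HP1α KO and at 33.9 to 54.6 in theirs. The HP1α KO level of Cbx5 overlapped that of HP1γ KO (19.7 to 29.7 CPM) and of HP1γ WT (26.9 to 37.2 CPM). The 5 memory CD4 T cell markers summed to 2592 to 3012 CPM in every sample. Markers of other cells were present as well. Among T cells, the 3 naive markers summed to 311.5 to 579.8 CPM and the 3 regulatory markers to 191.4 to 381 CPM. The 7 B cell markers summed to 308 to 783 CPM, the 6 plasmacytoid dendritic cell markers to 115 to 344 CPM, the 4 erythroid markers to 10.4 to 738 CPM and the 8 monocyte and macrophage markers to 29.6 to 133 CPM, and none of these defining markers was at 0 in all samples. In bulk samples, fewer cells of a type and less RNA per cell cannot be told apart.

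Every one of the 43 genes was measurable, and all passed the filter on low counts in each comparison. Mean levels over 16 samples ran from 0.702 to 280.5 TPM (transcript abundance corrected for length) with a median of 31.55 TPM, and 33 of 43 genes reached 10 TPM. Samhd1, which encodes a dNTP hydrolase that restricts retroviruses, was highest at 280.5 TPM (249.4 to 326 across samples). Epsti1 followed at 143.2 TPM, Lgals9 (galectin-9, a lectin that binds TIM-3) at 142.0 TPM, Bst2 (tetherin, which holds budding virions at the membrane) at 114.9 TPM and Zbp1 (a sensor of Z-form nucleic acid) at 111.9 TPM. The ranges of Epsti1 (116.3 to 166.2) and Lgals9 (128.7 to 161.2) overlapped across samples, as did those of Bst2 and Zbp1.

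The lowest were Ifi44 at 0.702 TPM, Ifit3b at 2.12, Oasl1 at 2.51, Oas2 at 3.99 and Rsad2 (viperin, which makes a chain-terminating nucleotide) at 4.72 TPM. Levels therefore spread widely within families. Oas3 stood at 21.05 TPM and Oas1a at 20.35 TPM, with Oas2 from the same locus at 3.99 TPM. All 3 encode synthetases of the oligoadenylate that activates RNase L. Transcripts of Oas1a, Rtp4, Trim30a, Herc6, Igtp, Gbp7 and Ifi203 shared at least 150 bases at 98% identity or more with another gene, so that the division of reads of these 7 genes is uncertain. Among the transducers, Irf7 (83.1 TPM), Irf9 (78.9 TPM) and Stat2 (56.8 TPM) stood above Usp18 (6.67 TPM), the protease that takes ISG15 off its targets and blocks signalling at IFNAR2.

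Samples of 1 group did not carry the same level of these genes. The mean of the 43 genes' deviations from their own mean over all samples (log2 CPM scale) was 0.40 in HP1α WT replicate 2, the highest of all samples. The other 3 HP1α WT samples were at -0.045, -0.10 and 0.054. HP1α KO samples ranged from -0.096 to 0.20, HP1γ WT samples from -0.20 to 0.099 and HP1γ KO samples from -0.21 to -0.013. HP1α WT replicate 2 therefore lay above the other samples of its group. Its mean level was not flagged in the screen for outlying samples given below. This library was the highest of its group for 35 of 43 genes, against 30% of all genes, and the highest of all 16 samples for 22 of 43, against 12.4% of all genes. Bst2, Irf7 and Irf9 were among the genes for which another HP1α WT sample was higher. In this library the erythroid markers were lowest of all samples (10.4 CPM), the naive T cell markers were lowest (311.5 CPM), and Cbx5 (54.6 CPM) and Cbx3 (113 CPM) were highest. Their part in its level was not tested. Counts and medians of each comparison that uses this library are given below with and without it, and so are the values of genes that turn on it.

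**Figure D1:**
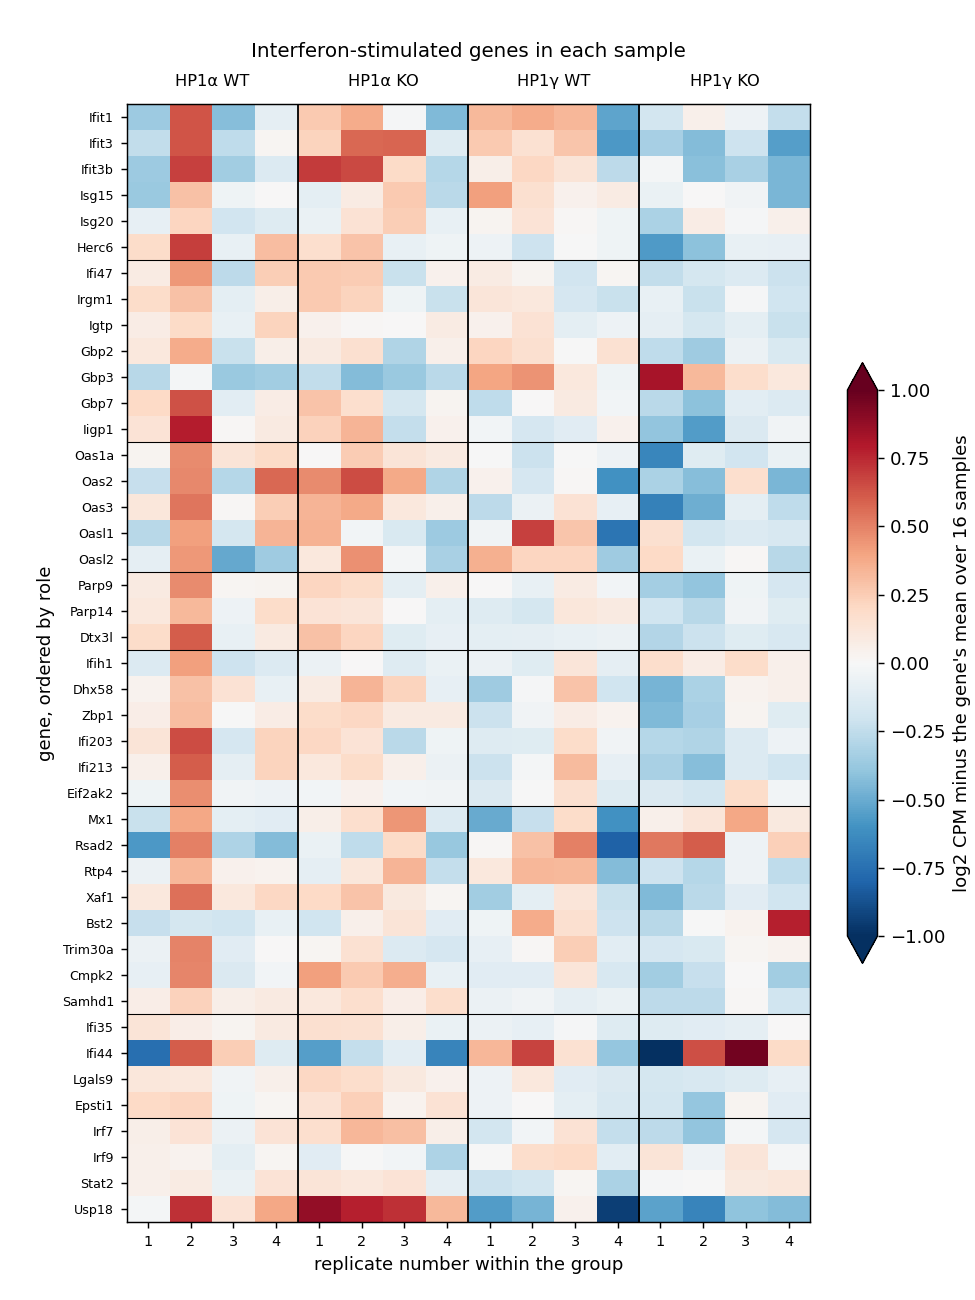
Heat map of the 43 genes (rows, ordered by role) in the 16 samples (columns, by group and replicate number). Colour is log2 CPM minus the gene's mean over all samples, so red is above and blue below that mean. The column of HP1α WT replicate 2 is red for nearly all genes, with a mean of 0.40, and the columns of HP1γ KO replicates 1 and 2 and of HP1γ WT replicate 4 are blue for most, with means of -0.21, -0.18 and -0.20.

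The spread of the 43 genes among HP1α WT samples rested on that library. Their median within-group SD (log2) was 0.252 in HP1α WT, against 0.188 for all genes tested. Without replicate 2, a setting chosen after seeing the data, it was 0.117, against 0.159. In the other groups it was 0.175 (all genes 0.164) in HP1α KO, 0.152 (0.193) in HP1γ KO and 0.149 (0.188) in HP1γ WT.

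**Figure D2:**
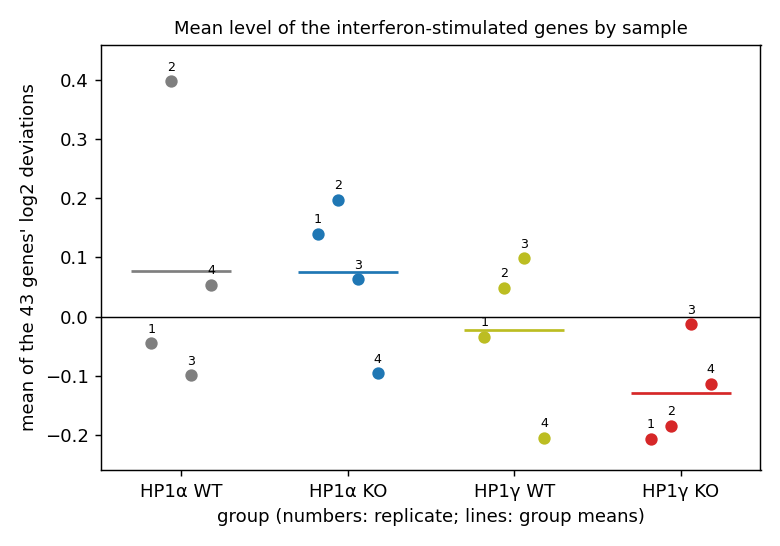
Mean of the 43 genes' log2 deviations in each sample (points, numbered by replicate), by group, with the group mean as a line. The HP1α WT and HP1α KO means lie together (0.077 and 0.076), although the HP1α WT mean is -0.030 without replicate 2, the HP1γ KO mean (-0.13) lies below the HP1γ WT mean (-0.023), and HP1α WT replicate 2 lies above all other samples at 0.40.

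Loss of HP1α moved none of these genes past the test. At an adjusted p under 0.05 in edgeR's quasi-likelihood test, 0 of 43 were higher and 0 lower in HP1α KO, where 0% of the 14881 genes tested were called in either direction. At an unadjusted p under 0.05, 0 of 43 were higher (all genes 1.67%) and 0 lower (all genes 2.59%). The log2 fold changes of the KO over WT split 20 above 0 (all genes 50.9%) and 23 below 0 (all genes 49.1%), and their median was -0.049, against 0.0026 for all genes. The smallest adjusted p among them was 0.946. For 0 of 43 genes did the groups fail to overlap (all genes 1.71% higher and 1.4% lower).

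The largest shifts were within the spread of the samples. Usp18 was at 9.90, 9.20, 8.94 and 6.73 CPM in HP1α KO and at 5.29, 8.91, 5.90 and 7.03 CPM in HP1α WT. The groups overlapped through WT replicate 2 and KO replicate 4, and the log2 fold change was 0.35 (SE 0.18, adjusted p = 0.946). Ifit3, which encodes an RNA-binding partner of IFIT1, was at 14.2, 18.1, 18.1 and 11.1 CPM in KO and 10.2, 18.8, 10.2 and 12.3 CPM in WT, and the log2 fold change was 0.25 (SE 0.22). Its highest sample of all was again WT replicate 2. Without that library the fold changes were 0.51 for Usp18 and 0.49 for Ifit3, each with an adjusted p of 1.00.

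Ifit3b had a log2 fold change of 0.34 (SE 0.30). At the other end stood Ifi44 (-0.50, SE 0.34), Ifi203 (-0.22, SE 0.16) and Herc6 (-0.22, SE 0.15), the last of which encodes the main ligase for ISG15 in the mouse. Ifi44 was the lowest gene by level, at 0.410 to 1.15 CPM over both groups, and its fold change was above 0 on the TPM scale. Ifi203 was at 232, 220.4, 166 and 194 CPM in KO and 219.5, 315, 179 and 234 CPM in WT, where replicate 2 was the sample that stood out. Without it the fold changes were 0.66 for Ifit3b, -0.24 for Ifi44, -0.058 for Ifi203 and -0.062 for Herc6.

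By role, the 7 IRG and GBP GTPases, which attack the vacuoles of intracellular pathogens, were all below 0, between -0.19 for Iigp1 and -0.051 for Ifi47. Parp9, Parp14 and Dtx3l, of which PARP9 and DTX3L form a ubiquitin ligase, were all below 0 as well (-0.078, -0.11 and -0.14). Of the 6 genes of the IFIT and ISG group, 5 were above 0 and Herc6 below. None of these shifts passed the test, and they depended on 1 library. Without HP1α WT replicate 2, 34 of 43 genes were above 0 and 9 below, the median was 0.040, and 4 were higher at an unadjusted p under 0.05, still with 0 called. The share of all genes past that p in this fit is not given, so the 4 show no change particular to these genes. Without HP1α WT replicate 3, 29 of 43 were below 0 and the median was -0.082, and without HP1α KO replicate 4 the median was 0.034.

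Other genes of the pathway gave the same count. Of 106 tested, 0 were called higher and 0 lower in HP1α KO. At an unadjusted p under 0.05, Socs3, a feedback inhibitor of JAK signalling, was higher (log2 fold change 0.26, SE 0.11, adjusted p = 0.946), and Gbp4 (-0.20, SE 0.082) and Pnpt1 (-0.24, SE 0.098) were lower. Irf1 was at -0.037, Ifng at -0.097, Ifnar1 at 0.044, Ifnar2 at 0.055 and Socs1 at 0.10, each with an adjusted p of 0.946 or more.

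In HP1γ KO, 34 of the 43 genes lay below their WT littermates (49.9% of the 14975 genes tested) and 9 above (50.1%). The median log2 fold change was -0.11, against 0.00050 for all genes. No single gene passed the test. By edgeR 0 were called higher (all genes 0.254%) and 0 lower (all genes 0.0735%). At an unadjusted p under 0.05, 7 were lower (all genes 5.57%) and 3 higher (all genes 6.34%). In CPM, the KO samples all lay under the WT samples for 3 genes (all genes 4.65%), and for 0 they all lay over them (all genes 2.94%).

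Gbp2, a GTPase that targets vacuoles holding pathogens, had the smallest p. It was at 41.9, 39.1, 48.0 and 45.1 CPM in HP1γ KO and at 58.0, 56.0, 49.9 and 55.5 CPM in HP1γ WT. All 4 KO samples were below all 4 WT samples, with a log2 fold change of -0.31 (SE 0.078, unadjusted p = 0.0023, adjusted p = 0.188). DESeq2 on the same counts gave it an adjusted p of 0.0287, the only one of the 43 genes it called in this comparison. The share of all genes that DESeq2 called here is not given.

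Isg15, the ubiquitin-like modifier, was at 16.2, 17.0, 16.6 and 12.3 CPM in KO and 22.6, 18.9, 17.5 and 18.02 CPM in WT. The groups did not overlap in CPM, and the log2 fold change was -0.29 (SE 0.12, adjusted p = 0.401). In TPM they overlapped, with KO replicate 2 at 51.4 and WT replicate 4 at 50.9. All 6 genes of the IFIT and ISG group, Herc6 included, were below 0, with a median of -0.27. Ifit3 was at 9.63, 8.96, 10.5 and 8.25 CPM in KO and 14.6, 13.5, 14.7 and 8.12 CPM in WT. WT replicate 4 lay below all KO samples and the other 3 WT samples above them, and the fold change was -0.42 (SE 0.18, adjusted p = 0.399). Ifit3b stood at -0.32 (SE 0.20).

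All 5 OAS genes were below 0, with Oas3 at 36.3, 41.3, 54.2 and 48.8 CPM in KO and 48.5, 55.8, 64.2 and 55.0 CPM in WT (log2 fold change -0.29, SE 0.13, adjusted p = 0.406). Its groups overlapped in part. Parp9 was at 40.1, 38.7, 49.4 and 45.2 CPM in KO and 51.0, 48.4, 53.8 and 49.9 CPM in WT, with a fold change of -0.21 (SE 0.083, adjusted p = 0.385). Its partner Dtx3l differed less (-0.094, SE 0.056), but its KO samples, at 61.1 to 68.7 CPM, lay below all WT samples, at 69.97 to 71.9 CPM. In TPM the Dtx3l groups overlapped, at 19.9 to 22.4 in KO and 20.5 to 23.0 in WT.

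Ifi47, an IRG GTPase, was at -0.16 (SE 0.070, adjusted p = 0.402) and Ifi213, of the family of DNA-binding proteins that includes AIM2, at -0.26 (SE 0.11, adjusted p = 0.408). Of the 7 IRG and GBP GTPases, 6 were below 0. The exception was Gbp3 at 0.17 (SE 0.17).

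A few genes lay on the other side. Stat2, the partner of IRF9 in ISGF3, was at 81.1, 81.8, 87.7 and 88.4 CPM in HP1γ KO and 70.5, 72.0, 83.1 and 65.8 CPM in WT, which gave a fold change of 0.24 on the log2 scale (SE 0.078, adjusted p = 0.317). Only WT replicate 3 reached the KO range. Mx1, a GTPase whose intact form blocks influenza virus, was at 20.4, 21.5, 25.8 and 21.1 CPM in KO and 13.9, 16.8, 22.5 and 12.9 CPM in WT, a fold change of 0.45 (SE 0.16, adjusted p = 0.359). Ifih1, which encodes the RNA sensor MDA5, had a fold change of 0.18 (SE 0.075, adjusted p = 0.393) and Rsad2 one of 0.30 (SE 0.25, adjusted p = 0.667).

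Within a sample the 43 genes tended to move together, so their signs are not 43 separate observations. By mean deviation, HP1γ WT replicate 4 (-0.20) was about as low as the lowest KO sample (-0.21). KO replicate 3 (-0.013) lay above WT replicate 1 (-0.034), and WT replicates 2 and 3 lay above all KO samples. The sign count held when each library was left out in turn, with 29 to 37 of 43 genes below 0 and a median of -0.16 to -0.086. The number below an unadjusted p of 0.05 on the lower side did not. It was 2 without HP1γ KO replicate 1, HP1γ KO replicate 2 or HP1γ WT replicate 2, 3 without HP1γ KO replicate 4, and 4 without HP1γ WT replicate 1 or 3. The number on the higher side was 1 without HP1γ KO replicate 3 or HP1γ WT replicate 1 or 4. In the fit of all 16 samples, 2 genes were lower and 2 higher by that measure. On the TPM scale (limma on log2(TPM + 1)) 29 of 43 genes were below 0, where 36.2% of all genes were, with a median of -0.048, and 1 gene was lower and 3 higher at an unadjusted p under 0.05. The share of all genes past that p is not given for these alternative fits. Erythroid markers differed between samples as well, with overlap between the groups. The 4 markers summed to 625.7, 737.8, 51.1 and 522.6 CPM in HP1γ KO and to 28.8, 303.6, 326.2 and 44.1 CPM in HP1γ WT, and the mean deviations of the 43 genes in those KO samples were -0.21, -0.18, -0.013 and -0.11. The KO sample lowest in the markers was the one nearest 0 for the 43 genes, and in WT the sample lowest for the 43 genes (-0.20) was low in the markers. WT replicates 2 and 3, the highest of their group in the markers, were also its highest for the 43 genes (0.048 and 0.099). The part of the markers in the shift was not tested.

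**Figure D3:**
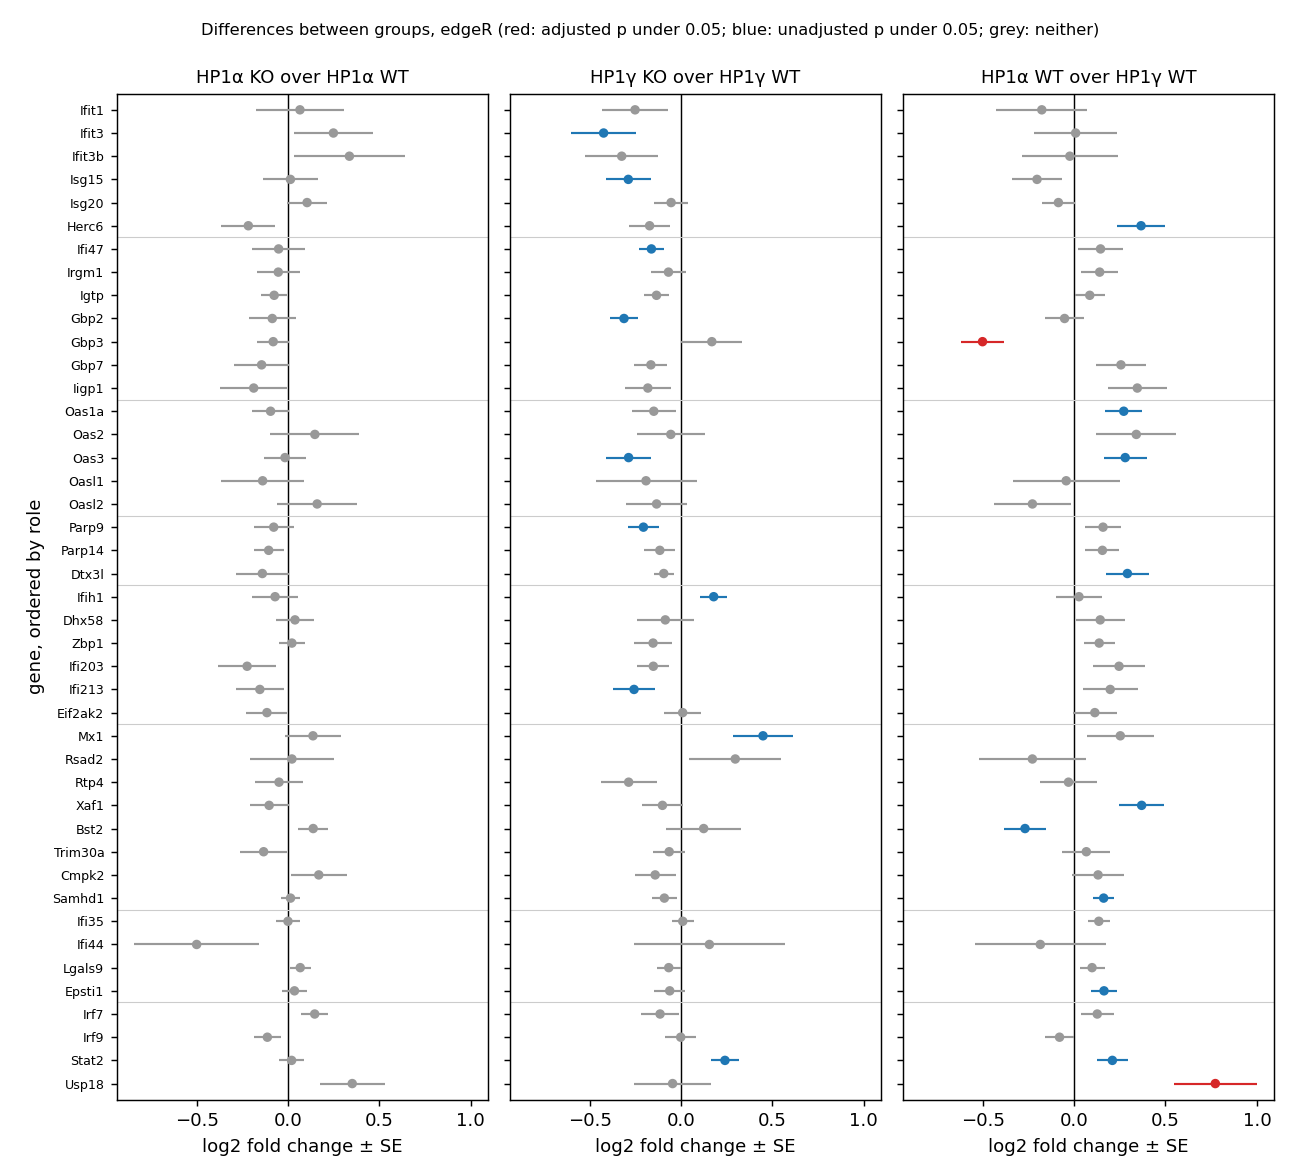
Log2 fold change with its SE (edgeR) of each gene in HP1α KO over HP1α WT, HP1γ KO over HP1γ WT and HP1α WT over HP1γ WT, ordered by role. Grey points did not reach an unadjusted p of 0.05, blue points did, and the red points, Gbp3 and Usp18 between the WT groups, passed the adjusted threshold. HP1γ KO shows 34 of 43 points left of 0.

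Among the pathway genes outside the 43, 105 were tested in this comparison and 0 were called higher or lower by edgeR. At an unadjusted p under 0.05, 5 were higher (4.76%, all genes 6.34%) and 11 lower (10.5%, all genes 5.57%). Ifi214, of the same DNA-binding family as Ifi203, came closest. It was at 6.28, 6.16, 5.94 and 7.02 CPM in HP1γ KO and 9.19, 10.3, 11.8 and 9.42 CPM in WT. The groups did not overlap, and the log2 fold change was -0.66 (SE 0.12, adjusted p = 0.0595). Ifi209 (-0.31, adjusted p = 0.120), Gbp6 (-0.28, adjusted p = 0.174) and Tgtp2 (-0.33, adjusted p = 0.253) were also lower in every KO sample. Aim2, the sensor that builds an inflammasome on DNA, was higher in every KO sample (0.26, adjusted p = 0.179). Groups did not overlap for 7 of the 105 on the lower side (6.67%, all genes 4.65%). On the higher side this held for 1 (0.952%, all genes 2.94%).

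Irf1 was at -0.013, Ifng at -0.15 (SE 0.13), Ifnar1 at 0.038, Ifnar2 at -0.030 and Socs1 at -0.019, with overlapping groups in each. DESeq2 called Ifi214, Ifi209 and Gbp6 lower and Aim2 higher, but the share of all genes it called is not given.

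**Figure D4:**
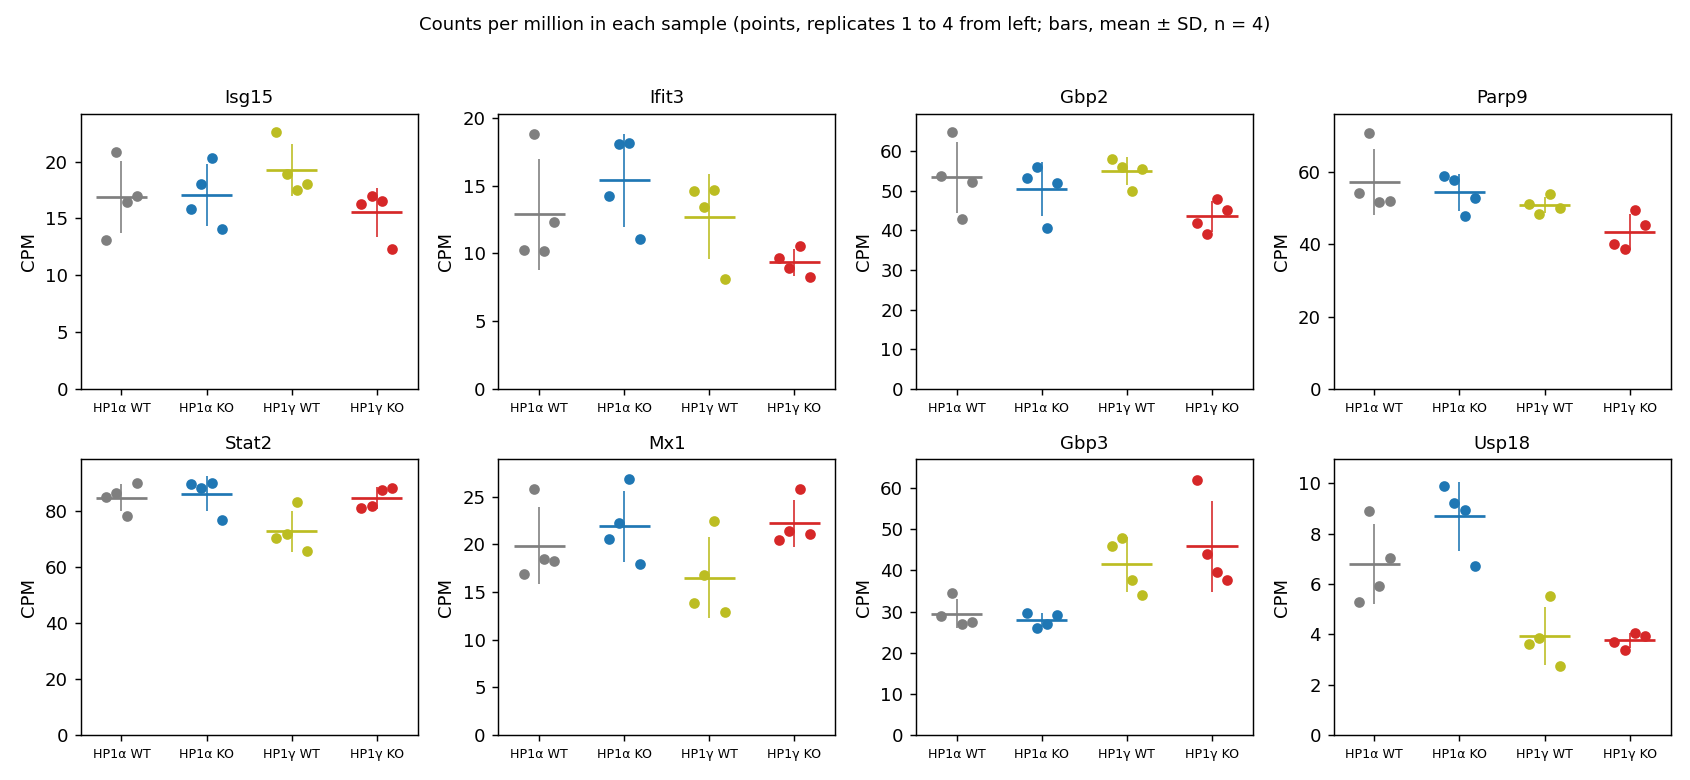
CPM in each sample (points, replicates 1 to 4 from left) with the mean and SD (n = 4) for 8 of the genes. Gbp2 and Isg15 do not overlap between HP1γ KO and WT, Stat2 and Mx1 lie higher in HP1γ KO with partial overlap, and, between the WT groups, Gbp3 lies lower and Usp18 higher in the HP1α line, with 1 sample overlapping in each.

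In Bst2 a single HP1γ KO sample lay well above the others. It was at 38.1, 46.3, 47.5 and 79.5 CPM in HP1γ KO and at 45.02, 60.1, 51.7 and 40.2 CPM in HP1γ WT, and the fold change was 0.12 (SE 0.21, adjusted p = 0.846). Bst2 is known as a surface marker of mouse plasmacytoid dendritic cells as well as an interferon-stimulated gene. Siglech, a defining marker of those cells, was at 31.7, 37.2, 24.9 and 110.0 CPM in those KO samples, against 10.7, 49.4, 32.0 and 11.4 CPM in WT. Across the HP1α line it ranged from 10.4 to 18.6 CPM. The sample highest in Bst2 was thus also highest in Siglech, and the WT sample highest in Bst2 was the WT sample highest in Siglech. In the HP1α line, KO replicate 3 was highest in Bst2 (50.6 CPM) and lowest in Siglech (10.4 CPM). Ly6d (51.4 CPM), Klk1 (18.9 CPM), Ccr9 (65.7 CPM) and Cox6a2 (14.9 CPM) were highest in HP1γ KO replicate 4 too. Pacsin1 was at 83.6 CPM there and highest in HP1γ WT replicate 4 (91.2 CPM). The summed 6 markers were at 344 CPM in HP1γ KO replicate 4 and at 115 to 226 CPM in the other 15 samples. Their part in the Bst2 level was not tested.

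**Figure D5:**
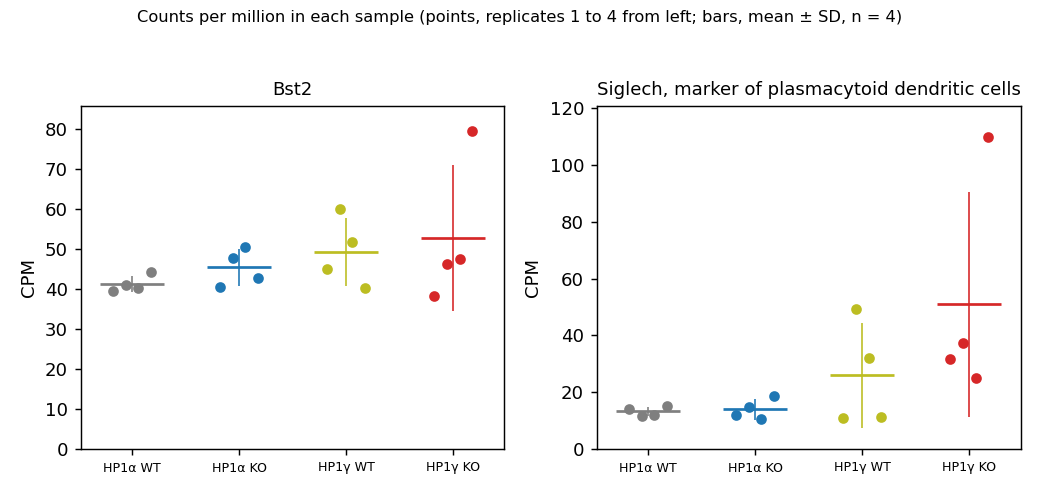
CPM of Bst2 (left) and of the plasmacytoid dendritic cell marker Siglech (right) in each sample, with group mean and SD (n = 4). HP1γ KO replicate 4 is the highest sample in both panels (79.5 and 110.0 CPM), and HP1γ WT replicate 2 is the highest WT sample in both (60.1 and 49.4 CPM).

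Whether the effects of the deletions differed was tested as an interaction over all 16 samples, with the HP1γ effect subtracted from the HP1α effect. Of 43 genes, 0 were called higher (all genes 0.00634%) and 0 lower (all genes 0.0444%). At an unadjusted p under 0.05, 1 was higher (all genes 4.67%) and 0 lower (all genes 4.91%). That gene was Ifit3, with a difference of 0.68 (SE 0.30, adjusted p = 0.496), and Ifit3b followed at 0.67 (SE 0.37) and Usp18 at 0.41 (SE 0.28). At the other end were Ifi44 (-0.65, SE 0.57), Mx1 (-0.30, SE 0.24) and Rsad2 (-0.27, SE 0.37), of which Ifi44 was above 0 on the TPM scale and Rsad2 above 0 without HP1α WT replicate 2. Without that library Ifit3 was at 0.92, Ifit3b at 0.99 and Usp18 at 0.57, and Ifi44 was at -0.39 and Mx1 at -0.15. The difference was above 0 for 30 of 43 genes (all genes 50.6%), with a median of 0.068, and without HP1α WT replicate 2 it was above 0 for 36, with a median of 0.16 and 7 genes higher at an unadjusted p under 0.05. The share of all genes past that p without this library is not given, so the 7 show no change particular to these genes. Because the HP1α KO and WT groups overlapped for every one of the 43 genes, separation in opposite directions in the lines could not be seen. Of the pathway genes 0 were called, and those with the smallest p were Aim2 (-0.35, adjusted p = 0.384), Ifi214 (0.56, adjusted p = 0.436), Ifitm3 (1.39, SE 0.54, adjusted p = 0.446), Ly6e (0.20, adjusted p = 0.491) and Gm12250 (0.42, adjusted p = 0.503).

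The WT groups of the HP1α and HP1γ lines differed from each other in more genes than either deletion changed. The labels give no batch, so the line and any difference in handling between the lines cannot be told apart. In HP1α WT over HP1γ WT, 1 gene was called higher (all genes 4.55%) and 1 lower (all genes 8.25%), both below the share of all genes. At an unadjusted p under 0.05, 9 were higher (all genes 13.8%) and 2 lower (all genes 16.1%). Above 0 lay 30 of 43 (all genes 52.1%), with a median of 0.14 against 0.015 for all genes. Without HP1α WT replicate 2, the library highest in mean level, 25 were above 0, the median was 0.067 and 4 were higher at an unadjusted p under 0.05. That number was also 4 without HP1γ WT replicate 2, 5 without HP1γ WT replicate 1 or 4, and 15 without HP1α WT replicate 3. The share of all genes past that p in these fits is not given, so the counts show no change particular to these genes.

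Gbp3, the gene that was lower, was at 28.9, 34.5, 27.04 and 27.6 CPM in HP1α WT and at 46.1, 47.9, 37.8 and 34.04 CPM in HP1γ WT. HP1α WT replicate 2 just reached the lowest HP1γ WT sample, and the log2 fold change was -0.50 (SE 0.12, adjusted p = 0.0234). Its neighbours Gbp2 and Gbp7 on chromosome 3, within 1 cluster of GBP genes, did not follow (-0.052 and 0.26). Usp18 was higher in HP1α WT, at the values given above, than in HP1γ WT, at 3.61, 3.86, 5.53 and 2.76 CPM. HP1γ WT replicate 3 alone overlapped, and the fold change was 0.77 (SE 0.23) with an adjusted p of 0.05, just under the threshold before rounding. The Gbp3 call was lost without HP1α WT replicate 1, 3 or 4 or HP1γ WT replicate 1 or 2 (adjusted p up to 0.0798). The Usp18 call was kept only without HP1γ WT replicate 3 (adjusted p = 0.0224) and reached an adjusted p of 0.127 without another library.

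Below the threshold were Xaf1 (0.37, adjusted p = 0.0733), Samhd1 (0.16, adjusted p = 0.0898), Herc6 (0.37, adjusted p = 0.0940), Oas1a (0.27, adjusted p = 0.100), Stat2 (0.21, adjusted p = 0.119), Dtx3l (0.29, adjusted p = 0.125) and Bst2 (-0.27, adjusted p = 0.141). On the TPM scale Herc6 differed little, with means of 21.3 in HP1α WT and 20.4 in HP1γ WT and overlapping groups. Groups did not overlap for Samhd1, Oas1a and Ifi35, all higher in HP1α WT (all genes 9.36% higher and 10.2% lower). Samhd1 was at 430, 484, 430 and 437.5 CPM in HP1α WT and at 397, 402, 388 and 394 CPM in HP1γ WT. Rsad2 stood at -0.23 (SE 0.29). Without HP1α WT replicate 2, Xaf1 was at 0.27, Herc6 at 0.22, Dtx3l at 0.15, Oas1a at 0.18, Samhd1 at 0.13 and Rsad2 at -0.52, and Stat2 (0.21) and Bst2 (-0.26) moved little.

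The KO groups of the lines, which share no sample with the WT groups but differ in the deleted gene as well, were set beside this as a comparison chosen after seeing the data. In HP1α KO over HP1γ KO, 14 of 43 genes were called higher (all genes 16%) and 3 lower (all genes 16.8%), and 36 were above 0 (all genes 51.1%), with a median of 0.22. Usp18 was at 9.90, 9.20, 8.94 and 6.73 CPM in HP1α KO and at 3.68, 3.37, 4.04 and 3.94 CPM in HP1γ KO. Its groups did not overlap (log2 fold change 1.18, SE 0.15, adjusted p = 0.0010). Gbp3 was at 26.0 to 29.6 CPM in HP1α KO and at 37.7 to 62.0 CPM in HP1γ KO (-0.74, SE 0.15, adjusted p = 0.0050). Irf7, Oas3, Ifit3, Samhd1 and Lgals9 were among those called higher, and Ifih1 and Rsad2 were the other genes called lower.

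Of the 105 other pathway genes tested, 10 were called higher (9.52%, all genes 4.55%) and 7 lower (6.67%, all genes 8.25%) in HP1α WT over HP1γ WT. Irf3, the factor that starts interferon production, was at 87.7, 89.1, 81.5 and 86.0 CPM in HP1α WT and 55.7, 57.2, 65.2 and 73.1 CPM in HP1γ WT (0.44, adjusted p = 0.0136). Mavs (0.61, adjusted p = 0.0145), the adaptor of RNA sensing, was higher as well. Cd274 (PD-L1; -0.74, adjusted p = 0.0038), Nampt (-0.86, adjusted p = 0.0074) and the DNA exonuclease gene Trex1 (-0.56, adjusted p = 0.0170) were lower. The calls of Irf3, Cd274 and Nampt held when any 1 library was left out and with the replicate block. That of Mavs was lost without HP1α WT replicate 1 (adjusted p = 0.0554) or HP1γ WT replicate 2 (0.0505) and with the block (0.0611), and that of Trex1 without HP1γ WT replicate 1 (0.0560) or 2 (0.0537) and with the block (0.0539). Irf1 (-0.16), Ifng (0.037), Ifnar1 (-0.32), Ifnar2 (-0.022) and Socs1 (-0.33) did not pass the test.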

How the data were processed

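Groups and replicate numbers were read from the titles and genotype labels. The treatment label names transferred cells, differs from the sort described in the methods, and was left out. Per the study's methods and the submitters' processing notes, STAR aligned the reads to GRCm39 and Salmon counted them per gene, and the authors deposited estimated counts per gene without normalization, of which 11.6% are not whole. The deposited TPM values, also by the authors, keep no depth and served for levels between genes. The members and gene lists were chosen with earlier results of these data known.

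Estimated counts were rounded and tested in R 4.3.3 with edgeR 4.0.16 (TMM, filterByExpr with a minimum count of 10, glmQLFit, glmQLFTest, Benjamini-Hochberg over all genes tested), in fits of 8 samples for each comparison and of 16 for the interaction. CPM in the text are TMM-normalized. Named were genes with an unadjusted p under 0.05 (at most 8, by p), the 3 highest and 3 lowest fold changes per comparison, the 5 highest and lowest by TPM, pathway genes with an unadjusted p under 0.05 (at most 5), and Irf1, Ifng, Ifnar1, Ifnar2 and Socs1. A further gene that the rule names is not reported here. Oas3 and Ifi213, genes given by role or locus and the non-overlapping Ifi35 were named after their values were seen. Of 117 pathway genes listed, 116 were found. Alternatives were DESeq2 1.42.0, limma 3.58.1 on log2(TPM + 1) or log2(TPM + 0.1), RLE factors, other filters, all samples in 1 fit, a replicate block and leaving out each library. Fits were tested on simulated data. No pair of replicates agreed within sampling noise (24 pairs). Promoters and coordinates came from GRCm39 with a GENCODE annotation, a release other than the one behind the counts. Transcripts were compared with blastn 2.17.0.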

Additional observations from a re-analysis of the deposited data

Results flagged for a closer look

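In 176 groups of 4 samples (43 genes and the mean level in 4 groups), 14 held a sample whose gap to the nearest other exceeded Dixon's limit. All 14 were single genes, and the mean level was flagged in no group. Chance flags about 1 in 20 groups. The genes tended to move together within a sample, so flags in 1 library are not separate observations. HP1α WT replicate 2 accounted for 8 of the 14, and all 8 were high. There Ifit3b was at 3.97 CPM (next 2.22), Ifih1 at 59.8 (next 40.8), Trim30a at 117.2 (next 83.3), Parp9 at 70.8 (next 54.1), Cmpk2 at 17.8 (next 12.4), Iigp1 at 18.2 (next 11.6), Samhd1 at 483.9 (next 437.5) and Eif2ak2 at 43.5 CPM (next 30.8).

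Of the other 6, the low ones were Ifit1 in HP1γ WT replicate 4 at 9.84 CPM (next 17.8), Isg15 in HP1γ KO replicate 4 at 12.3 CPM (next 16.2) and Stat2 in HP1α KO replicate 4 at 76.8 CPM (next 88.3). The high ones were Oasl1 in HP1γ KO replicate 1 at 3.31 CPM (next 2.68), Cmpk2 in HP1γ WT replicate 3 at 13.9 CPM (next 11.8) and Eif2ak2 in HP1α KO replicate 2 at 32.4 CPM (next 31.0).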

How the results depend on the processing

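In HP1α KO over WT and in the interaction, the counts of called genes stayed at 0 under every alternative run. In HP1γ KO over WT, DESeq2 called 1 gene of the 43 lower (Gbp2), and 1 pathway gene higher and 3 lower, and the fit of all 16 samples called 1 pathway gene lower. HP1α WT over HP1γ WT, where the main counts were 1 higher and 1 lower of the 43 and 10 and 7 of the pathway genes, moved most. The fit of all 16 samples gave 2 higher, and 14 pathway genes lower. DESeq2 gave 3 higher, and 19 pathway genes higher and 15 lower. Limma on TPM gave 0 and 0, and 2 or 3 pathway genes higher with a pseudocount of 1 or 0.1. Leaving out 1 library gave 0 to 3 higher and 0 to 2 lower, and 1 to 16 pathway genes higher and 2 to 11 lower. The KO groups of the lines gave 14 and 3, and 35 and 15 pathway genes, where 16% of all genes were called higher and 16.8% lower. For the other settings the share of all genes called is not given. Their counts therefore do not show a change particular to these genes. No comparison met the criterion for pairing by replicate number, a correlation over 0.1 in every pair. Correlations of same-numbered deviations were 0.094 to 0.23 in the HP1α line, 0.0031 to 0.15 in the HP1γ line and -0.20 to -0.065 between the WT groups, with 6, 2 and 0 of 8 samples closest to their own number. With the replicate block, HP1α WT over HP1γ WT gave 0 genes higher, and 1 pathway gene higher and 3 lower, and the other comparisons kept counts of 0. Ifi44 turned to 0.095 and 0.23 in HP1α KO over WT and to 0.20 and 0.56 in the interaction on log2(TPM + 1) and log2(TPM + 0.1), and Rsad2 in the interaction ranged from -0.44 to 0.037 over left-out libraries, above 0 only without HP1α WT replicate 2. The cause was not tested in any of these.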

Other observations

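The ligands of the pathway were hardly seen in these cells. Ifnb1, Ifna1 and Ifnk had 0 counts in all 16 samples, Ifna4 at most 1 and Ifna2 at most 3. In the shallowest library a count of 0 allows a share of up to 1.12e-05% of the counts, for counting error only. Ifng, in contrast, had a mean of 197.1 TPM. Ifnlr1, part of the type III interferon receptor, had at most 3 counts.

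The 43 genes lay on 16 chromosomes, and 22 of them lay in 9 clusters within 1 Mb of each other. Chromosome 19 held Ifit3, Ifit3b and Ifit1, chromosome 5 held Oas2, Oas3 and Oas1a, chromosome 3 held Gbp7, Gbp3 and Gbp2, and chromosome 16 held Parp14, Dtx3l and Parp9. Neighbours could lie on opposite sides of 0. Rsad2 and Cmpk2 on chromosome 12 had log2 fold changes of 0.30 (SE 0.25) and -0.14 (SE 0.11) in HP1γ KO over WT. Neither reached an unadjusted p under 0.05, so the opposite signs do not show that the neighbours differ.

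Genes with an ISRE core upstream had a median log2 fold change of -0.16 in HP1γ KO over WT (18 genes, 15 below 0), and those without one a median of -0.094 (25 genes, 19 below 0). In HP1α KO over WT the medians were 0.017 and -0.078. No difference between these sets was tested.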
